A study of Homo sapiens with 6 samples.

Results

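The genes described here regulate splicing, the removal of introns from precursor mRNA. They are the SR proteins SRSF1 to SRSF12 with the related TRA2A and TRA2B, the heterogeneous nuclear ribonucleoproteins (HNRNP genes), and the kinases CLK1 to CLK4, SRPK1 and SRPK2. They were taken from the table by a rule on gene symbols, which itself uses no measured value. The choice of these genes was made with earlier results of these data known. The rule gave 42 of 16809 listed genes: 14 SR genes, 22 HNRNP genes and 6 kinase genes. Of these, 40 averaged 1 TPM or more across the 6 libraries and were tested. The other two, SRSF12 and HNRNPCL4, stood at a listed 0 in all controls and never exceeded 0.11 TPM.

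CAL-27, an established human line of tongue squamous cell carcinoma, was profiled by RNA sequencing. There were 3 untreated control libraries and 3 libraries of cells given elesclomol with copper (ES-Cu) in equal ratio for 24 h. Elesclomol is an ionophore that carries copper into cells, and the series asks how transcript levels change in cuproptosis, a copper-dependent form of cell death. No dose is stated in the sources used here, and no gene was altered. Whether libraries of a group stem from separate cultures is not stated either, so p-values measure a spread that may be technical.

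SR proteins carry RNA recognition motifs and a tail rich in arginine and serine, and by binding exonic enhancers they mostly favour the inclusion of an exon. HNRNP proteins coat nascent RNA and often act as silencers of splice sites. SRPK kinases in the cytoplasm and CLK kinases in the nucleus phosphorylate the arginine-serine tails, which sets where SR proteins reside and what they bind. Many SR genes limit their own output through exons or introns whose inclusion exposes the transcript to nonsense-mediated decay.

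Values are TPM, which divides reads by gene length and scales each library to a fixed total. Read totals are lost in it, so depth and counting error are unknown. Such a share also cannot show a change in RNA per cell, or in the number of cells. Pearson's r of log2 values across genes, which are not independent replicates, was at least 0.994 for libraries of a group and at most 0.939 between groups. The 8 squamous epithelial markers examined all had a mean of at least 1 TPM in both groups, with sums of 2443 to 2563 TPM in control and 2908 to 2956 TPM in ES-Cu. The markers did not move together: SFN went from 640 to 1233 TPM and KRT6A from 174 to 234 TPM, while CDH1 went from 173 to 71.3 TPM, KRT17 from 375 to 282 TPM, EPCAM from 274 to 250 TPM and DSG3 from 8.59 to 4.50 TPM (group means). The 3 leukocyte markers found in the table summed to at most 1.37 TPM in any library, and the part of other cells in these results was not tested. Of 4 fibroblast markers 2 reached 1 TPM in control and 1 in ES-Cu (sums of 11.1 to 11.5 and 4.46 to 5.14 TPM), and of 3 endothelial markers 1, CDH5, did in both groups (sums of 7.14 to 7.47 and 1.28 to 1.87 TPM).

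The deposited scale carries a shift that decides how most members are read. Over 11927 tested genes the median log2 fold change was -0.50, and median-of-ratios scaling, which sets the median gene to 0.00, moved that median by 0.51. It raised the members by 0.49 to 0.56 and single genes of the table by as little as 0.10, since the pseudocount damps low genes. Quantile normalization left a median of -0.07 and moved members unequally, by -0.03 to 0.60. The words rose and fell are kept for genes that limma called, at an adjusted p under 0.05, with a single sign on the deposited scale and under both other scalings. Over all tested genes, 13.5% were higher and 31.2% lower by that rule. The rule was harder to meet for a fall, since median-of-ratios scaling lowered 0 of the tested genes. Of genes called as deposited, 1614 of 1628 higher ones and 3719 of 8351 lower ones met it. Log2 fold changes without another label are ES-Cu minus control on log2(TPM + 1) of the deposited values, which understates changes of low genes. Means are given ± SD (n = 3 per group).

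Of the 40 tested members, 12 rose and 5 fell, while 23 were not called with a single sign in all 3 scalings. CLK1, TRA2B, SRSF3 and SRSF7 stood apart from the others at the top, with 1.87 to 2.88 times their control TPM. Together these 4 genes summed to 537 to 555 TPM in control and 1073 to 1175 TPM in ES-Cu. The next member, TRA2A, was at 1.35 times control. HNRNPA1L2, HNRNPLL, CLK2, HNRNPUL2 and SRPK2 fell. Only 3 members rose with a log2 fold change of 1 or more (CLK1, TRA2B and SRSF3; 2.68% of all tested genes did so), and 1 fell by as much (HNRNPA1L2; 18.0% of all tested genes).

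The share of members that rose, 12 of 40, can be read against 13.5% of all genes, and that of members that fell, 5 of 40, against 31.2%. Their median log2 fold change was -0.02, against -0.50 for all tested genes. In all, 32 of 40 (80.0%) lay above the median gene. In the other splicing lists described below, 57.1% to 93.3% of tested genes did so. Members were also more abundant, with a median of 204 TPM (mean over the libraries) against 17.3 TPM for all tested genes. On the deposited scale alone 13 were called higher (13.6% of all genes) and 15 lower (70.0%), and after median-of-ratios scaling 30 were higher (38.0%) and 5 lower (35.8%). Under quantile normalization 22 were higher (31.4%) and 12 lower (39.9%). The control and ES-Cu libraries did not overlap for 27 members as deposited, 12 with all ES-Cu values higher (14.0% of all genes) and 15 with all of them lower (70.3%).

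**Figure D1:**
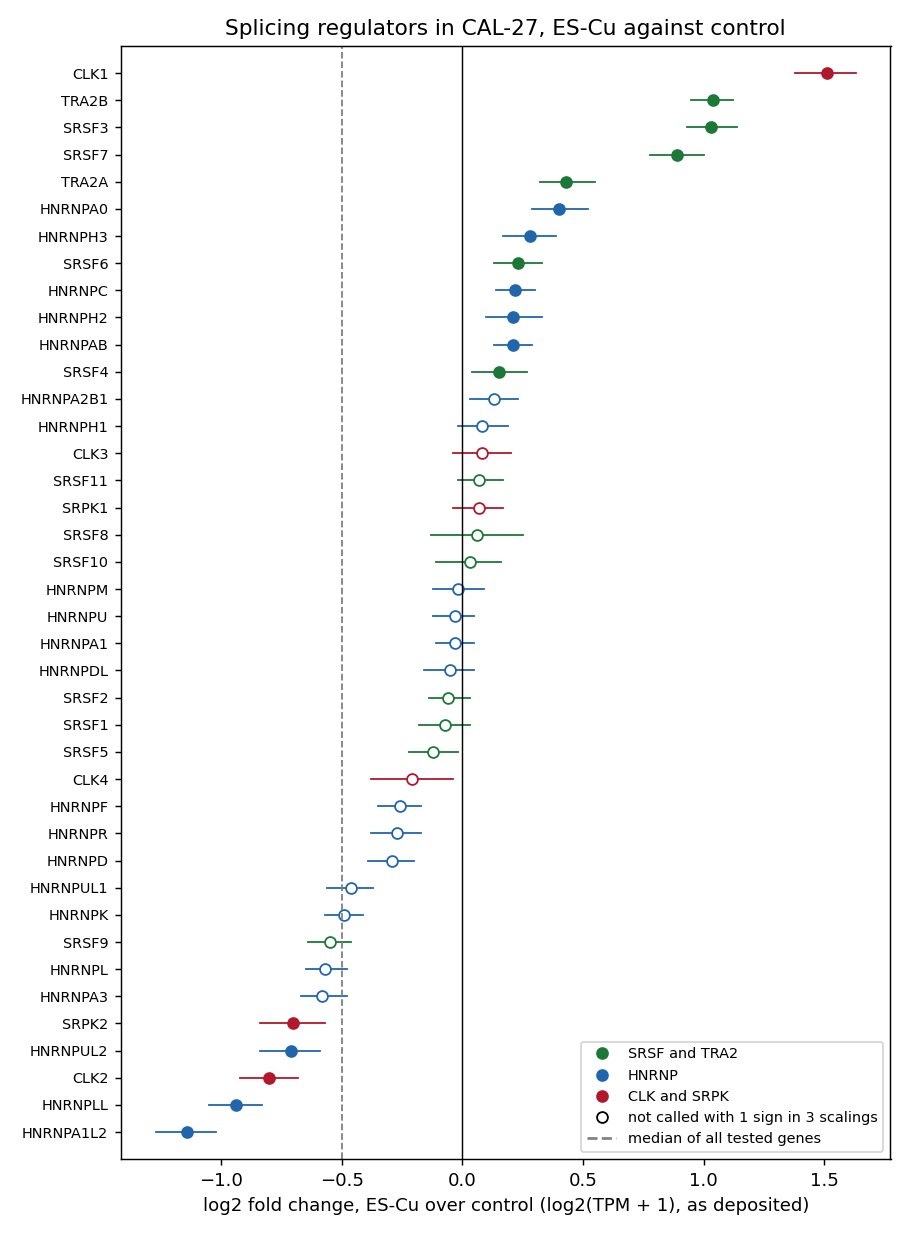
Log2 fold change of ES-Cu over control on the deposited log2(TPM + 1) scale for the 40 tested members, with the 95% interval from limma as a line. Filled points were called with a single sign in all 3 scalings, and the dashed line is the median of all tested genes at -0.50. CLK1, TRA2B, SRSF3 and SRSF7 lie at 0.89 to 1.51, and the remaining members run from 0.43 down to -1.14.

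The 4 CLK kinases, which phosphorylate SR proteins in the nucleus, moved apart. CLK1 (Entrez 1195) stood at 51.7, 54.8 and 50.8 TPM in the control libraries and at 162, 148 and 143 TPM in ES-Cu. Every ES-Cu library was therefore above every control library, and the rise was the largest among the members and the 162nd highest log2 fold change of 11927 genes (1.51 ± 0.0549 SE, limma adjusted p = 2.06e-09). The CLK1 transcript is known to be held in the nucleus with introns retained and to be spliced on demand in stressed cells, but gene-level TPM does not separate such forms.

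CLK2 went the other way. It was at 52.5, 50.9 and 48.1 TPM in control and at 28.4, 28.3 and 29.1 TPM in ES-Cu, with no overlap (log2 fold change -0.80 ± 0.0537 SE; limma adjusted p = 1.32e-07). CLK1 and CLK2 thus had near-equal levels in control and unequal ones in ES-Cu. CLK3 was measured at 78.9, 74.0 and 79.4 TPM and then at 86.3, 83.3 and 76.8 TPM, which overlap, and it was not called as deposited (log2 fold change 0.08, 95% interval -0.04 to 0.20, limma adjusted p = 0.175). It was called higher after median-of-ratios scaling (0.63, limma adjusted p = 3.05e-06) and under quantile normalization (0.38, limma adjusted p = 9.44e-05). Without ES-Cu replicate 3 CLK3 was called higher (0.13, limma adjusted p = 0.0473). CLK4, the closest relative of CLK1, was the lowest of the kinases at 12.1, 11.4 and 11.2 TPM in control and 9.83, 10.4 and 9.39 TPM in ES-Cu. Its difference changed sign with the scaling (-0.21 as deposited, adjusted p = 0.0238, 0.30 after median-of-ratios scaling and 0.34 under quantile normalization, limma). As deposited, the call of CLK4 was also lost without control replicate 1 (limma adjusted p = 0.0889) and without ES-Cu replicate 3 (0.0821).

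The SRPK kinases differed as well. SRPK1, a cytoplasmic kinase of SR proteins, was at 67.2, 69.7 and 64.6 TPM in control and at 72.5, 69.9 and 68.8 TPM in ES-Cu. The groups overlapped, and SRPK1 was not called as deposited (log2 fold change 0.07, 95% interval -0.04 to 0.17, limma adjusted p = 0.213) but was called higher after median-of-ratios scaling (0.62) and under quantile normalization (0.37). SRPK2 fell from 32.8, 34.9 and 36.3 TPM to 20.3, 20.6 and 21.7 TPM without overlap (log2 fold change -0.70 ± 0.0614 SE, limma adjusted p = 9.55e-07; -0.17 after median-of-ratios scaling). The 6 kinase genes together took 294 ± 2.86 TPM in control against 363 ± 15.3 TPM in ES-Cu, 1.23 times control (exact two-sided permutation p = 0.1, the smallest that 3 against 3 libraries allow; also 0.1 adjusted over the 3 family sums). On the median-of-ratios scale that sum was 1.82 times control. CLK1 carried the higher sum as deposited: the other 5 kinase genes together went from 241 ± 1.93 to 212 ± 5.83 TPM, a split chosen after seeing the values.

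Among the SR genes the strongest rises were in TRA2B, SRSF3 and SRSF7. TRA2B (Entrez 6434), a homologue of Drosophila transformer-2 that binds GAA-rich enhancers, went from 152, 154 and 155 TPM to 326, 315 and 308 TPM. That is 2.06 times control, with a narrow spread in both groups (log2 fold change 1.04 ± 0.0382 SE, limma adjusted p = 2.18e-09). Its paralog TRA2A rose less, from 92.4, 94.6 and 102 TPM to 137, 130 and 124 TPM (log2 fold change 0.43 ± 0.0522 SE, limma adjusted p = 1.33e-05). Both TRA2 genes therefore had all ES-Cu libraries above all controls.

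SRSF3 (Entrez 6428), the smallest SR protein and an adaptor for mRNA export, was at 148, 147 and 137 TPM in control and at 297, 309 and 282 TPM in ES-Cu. SRSF7 (Entrez 6432), its close relative with a zinc knuckle, was at 192, 199 and 194 TPM and then at 390, 360 and 340 TPM. Neither gene overlapped between groups, and the log2 fold changes were 1.03 ± 0.0480 SE for SRSF3 (limma adjusted p = 9.82e-09) and 0.89 ± 0.0498 SE for SRSF7 (limma adjusted p = 3.54e-08). In control SRSF7 was below SRSF2, SRSF5 and SRSF9, and in ES-Cu its mean of 363 TPM was the highest of the family.

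Smaller rises were found for SRSF6 and SRSF4, which each carry a pair of RNA recognition motifs. SRSF6 went from 50.9, 51.9 and 52.0 TPM to 60.1, 62.4 and 59.9 TPM (log2 fold change 0.23 ± 0.0459 SE, limma adjusted p = 6.10e-04). SRSF4 went from 85.7, 93.1 and 83.1 TPM to 98.1, 99.2 and 93.5 TPM (0.15 ± 0.0520 SE, limma adjusted p = 0.0187). The lowest ES-Cu value of SRSF4 lay just above its highest control value, and its call as deposited was lost without control replicate 1 or 3 (adjusted p = 0.0569 and 0.0823, limma) and without ES-Cu replicate 1 or 2 (0.0511 and 0.0613).

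SRSF9 and SRSF5, the SR genes with the highest control levels, were lower on the deposited scale. SRSF9, a relative of SRSF1, was at 461, 472 and 486 TPM in control and at 319, 339 and 314 TPM in ES-Cu, without overlap (log2 fold change -0.55, limma adjusted p = 2.97e-07). After median-of-ratios scaling it lay at 0.01 and was not called (limma adjusted p = 0.848), while under quantile normalization it was still lower (-0.44, limma adjusted p = 4.04e-06; median of all genes -0.07). SRSF5 was at 334, 348 and 328 TPM and then at 319, 320 and 292 TPM (log2 fold change -0.12, limma adjusted p = 0.0319; 0.44 after median-of-ratios scaling and 0.01 under quantile normalization). Its call as deposited was lost without control replicate 1 (limma adjusted p = 0.0518) or 2 (0.108) and without ES-Cu replicate 3 (0.133).

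The other tested SR genes were SRSF1, the prototype of the family, SRSF2, SRSF8, SRSF10, a repressor of splicing when dephosphorylated in heat shock, and SRSF11. None of these 5 was called as deposited (log2 fold changes from -0.07 to 0.07), and each was called higher after median-of-ratios scaling (0.48 to 0.63) and under quantile normalization (0.11 to 0.66). SRSF1 was called lower as deposited without ES-Cu replicate 1 (-0.12, limma adjusted p = 0.0274). SRSF8 is an expressed retrocopy of SRSF2, so that its TPM is uncertain. Over the 13 tested SR genes, 6 rose and 0 fell (13.5% and 31.2% of all tested genes), and their median log2 fold change was 0.07. The summed TPM of the SR genes was 2089, 2155 and 2130 in control and 2547, 2510 and 2369 in ES-Cu, or 1.17 times control (exact two-sided permutation p = 0.1). On the median-of-ratios scale that sum was 1.72 times control.

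**Figure D2:**
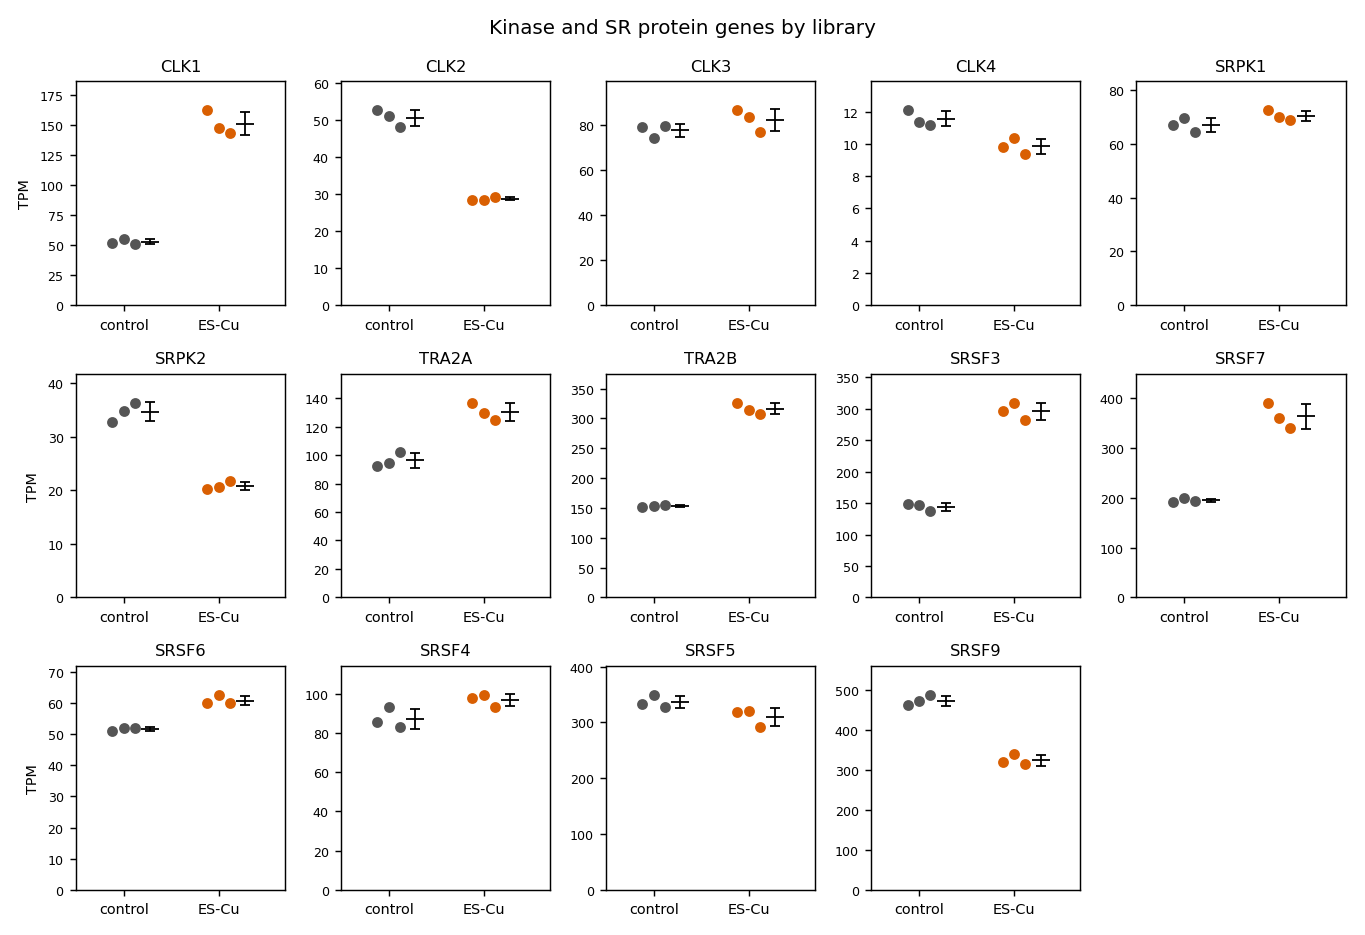
TPM as deposited in each library for 6 kinase genes and 8 SR genes, with control libraries in grey and ES-Cu libraries in orange; the bar beside each group is its mean ± SD (n = 3), and each axis starts at 0. CLK1, TRA2B, SRSF3 and SRSF7 show wide gaps between groups. CLK2, CLK4, SRPK2, SRSF5 and SRSF9 are lower in all 3 ES-Cu libraries, and CLK3 and SRPK1 overlap.

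The most abundant members were HNRNP genes. Of 21 tested, 5 rose and 3 fell (13.5% and 31.2% of all tested genes), and their median log2 fold change was -0.05. HNRNPA2B1, which takes part in splicing and RNA transport, was the highest at 1980, 2159 and 2016 TPM in control and 2315, 2296 and 2141 TPM in ES-Cu. One ES-Cu library lay below the highest control library, and its call (log2 fold change 0.13, limma adjusted p = 0.0161) was lost under quantile normalization (adjusted p = 0.0796) and when control replicate 1 or 3, or ES-Cu replicate 1 or 2, was left out (adjusted p of 0.0561 to 0.0660, limma). HNRNPA2B1 made up 21.2% to 21.9% of the HNRNP sum in control and 24.9% to 25.6% in ES-Cu.

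HNRNPA1, a general repressor of splice sites, was at 993, 1067 and 1067 TPM in control and at 1025, 1015 and 1023 TPM in ES-Cu. These values overlap (log2 fold change -0.03, 95% interval -0.11 to 0.05, limma adjusted p = 0.476), and HNRNPA1 was called higher after median-of-ratios scaling (0.53) but not under quantile normalization (-0.04, adjusted p = 0.285). HNRNPK, which binds C-rich RNA and DNA, was at 924, 943 and 920 TPM in control and at 683, 660 and 641 TPM in ES-Cu. All ES-Cu values of HNRNPK were lower as deposited (log2 fold change -0.49, limma adjusted p = 2.65e-07). The call was lost after median-of-ratios scaling (0.07, limma adjusted p = 0.132) and held under quantile normalization (-0.52, limma adjusted p = 2.29e-07).

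The 5 HNRNP genes that rose were HNRNPA0, HNRNPH3, HNRNPC, HNRNPAB and HNRNPH2. HNRNPA0, which binds AU-rich elements, had the largest change, from 41.5, 38.9 and 42.3 TPM to 55.4, 53.5 and 54.3 TPM (log2 fold change 0.40 ± 0.0515 SE, limma adjusted p = 2.11e-05). HNRNPH3, of the family that binds runs of G, went from 181, 207 and 193 TPM to 236, 241 and 230 TPM (0.28 ± 0.0499 SE). Its relative HNRNPH2 went from 153, 170 and 151 TPM to 188, 185 and 176 TPM (0.21 ± 0.0512 SE). In each of these genes the lowest ES-Cu library was above the highest control. HNRNPC, which binds runs of U and guards against the inclusion of exons from Alu repeats, rose from 524, 541 and 536 TPM to 635, 625 and 608 TPM (0.22 ± 0.0352 SE, limma adjusted p = 1.17e-04). HNRNPAB rose from 356, 367 and 364 TPM to 431, 423 and 405 TPM (0.21 ± 0.0375 SE). Adjusted p-values were 2.59e-04 for HNRNPH3, 2.84e-04 for HNRNPAB and 0.00239 for HNRNPH2 (limma), and their groups did not overlap either. HNRNPH1 and HNRNPH2 are close in sequence, and short reads could be split between them.

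Among the HNRNP genes that fell, HNRNPA1L2 had the largest change, from 213, 194 and 196 TPM to 97.3, 87.8 and 86.1 TPM (log2 fold change -1.14 ± 0.0563 SE, limma adjusted p = 1.52e-08). It is a retrotransposed copy of HNRNPA1, so reads of the pair cannot be fully told apart and its TPM is uncertain. HNRNPLL, a regulator of alternative splicing known from lymphocytes, fell from 69.6, 73.0 and 69.8 TPM to 37.7, 36.2 and 35.2 TPM (-0.94 ± 0.0501 SE, limma adjusted p = 2.57e-08). HNRNPUL2, a relative of the scaffold protein HNRNPU, fell from 121, 130 and 130 TPM to 83.1, 75.1 and 73.1 TPM (-0.71 ± 0.0557 SE, limma adjusted p = 4.06e-07). In all of these genes every ES-Cu library was below every control.

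The calls of the other HNRNP genes differed between scalings. HNRNPL, HNRNPA3, HNRNPUL1, HNRNPD, HNRNPR and HNRNPF were lower in every ES-Cu library as deposited (log2 fold changes -0.58 to -0.26). After median-of-ratios scaling HNRNPD, HNRNPR and HNRNPF were called higher, and HNRNPL, HNRNPA3 and HNRNPUL1 were not called. Under quantile normalization HNRNPL (-0.44), HNRNPA3 (-0.54), HNRNPUL1 (-0.30), HNRNPD (-0.19) and HNRNPF (-0.15) were still called lower, and HNRNPR was not called (-0.11, limma adjusted p = 0.0528). HNRNPH1, HNRNPM, HNRNPU and HNRNPDL overlapped between groups and were not called as deposited (-0.05 to 0.08), although HNRNPH1 was called higher without ES-Cu replicate 3 (0.14, limma adjusted p = 0.00934). The HNRNP sum was 9306, 9852 and 9526 TPM in control and 9132, 8977 and 8592 TPM in ES-Cu, 0.931 times control as deposited and 1.37 times after median-of-ratios scaling (exact two-sided permutation p = 0.1 on both scales).

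**Figure D3:**
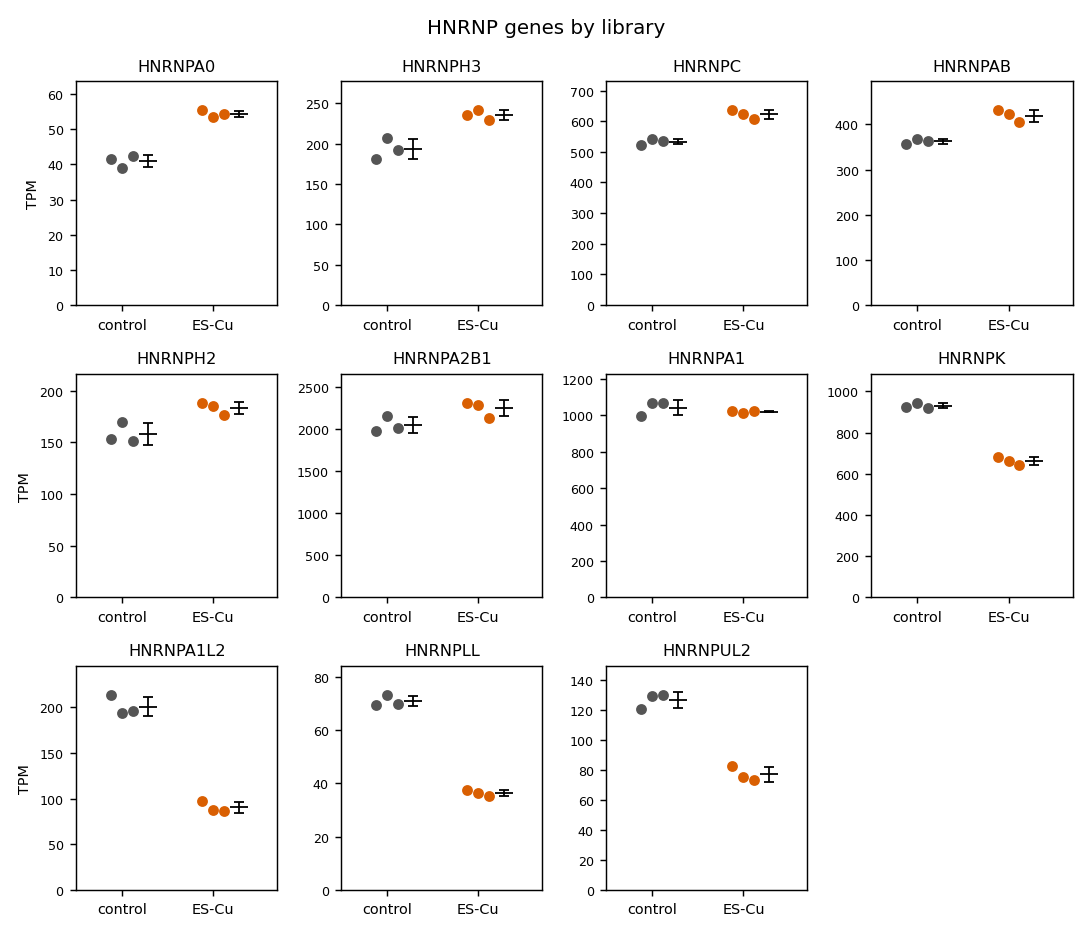
TPM as deposited in each library for 11 HNRNP genes, with control libraries in grey and ES-Cu libraries in orange; the bar beside each group is its mean ± SD (n = 3), and each axis starts at 0. HNRNPA0, HNRNPH3, HNRNPC, HNRNPAB and HNRNPH2 are higher in all ES-Cu libraries, HNRNPA1 overlaps, and HNRNPA1L2, HNRNPLL, HNRNPUL2 and HNRNPK are lower.

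Ratios between members within a library are left as they are by a scaling that divides each library by a single number, as the median of ratios does, but quantile normalization alters them. For 9 pairs, chosen after their values were seen, the ratio was computed in each library. CLK1 had 0.986 to 1.08 times the TPM of CLK2 in the control libraries and 4.92 to 5.70 times in ES-Cu. Against CLK4 it had 4.27 to 4.80 times in control and 14.2 to 16.5 times in ES-Cu. The CLK1 transcript therefore went from near parity with CLK2 to about 5.28 ± 0.391 times its level. SRPK1 to SRPK2 went from 1.94 ± 0.143 to 3.38 ± 0.198, and TRA2B to TRA2A from 1.52 to 1.64 in control to 2.38 to 2.47 in ES-Cu.

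Within the SR and HNRNP families the balance shifted too. SRSF3 had 0.282 to 0.321 times the TPM of SRSF9 in control and 0.898 to 0.932 times in ES-Cu, and SRSF7 went from 0.399 to 0.421 times SRSF9 to 1.06 to 1.22 times. HNRNPC relative to HNRNPK went from 0.574 ± 0.00807 to 0.942 ± 0.0100, and HNRNPL relative to HNRNPLL from 5.17 ± 0.190 to 6.78 ± 0.0752. HNRNPA1 relative to its copy HNRNPA1L2 went from 5.21 ± 0.474 to 11.3 ± 0.700. In all 9 pairs the control and ES-Cu ratios did not overlap (exact two-sided permutation p = 0.1 for each pair and 0.1 adjusted over the 9 pairs, the smallest possible). As the pairs were picked by their values, the lack of overlap and these p-values only describe the chosen pairs. Under quantile normalization, a check added after seeing the data, the groups still did not overlap in all 9 pairs, and each pair moved in the direction it had as deposited. The ratio of CLK1 to CLK4 then rose 2.68-fold rather than 3.38-fold, and that of HNRNPL to HNRNPLL 1.14-fold rather than 1.31-fold. Such a ratio shows unequal change and not which gene moved.

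**Figure D4:**
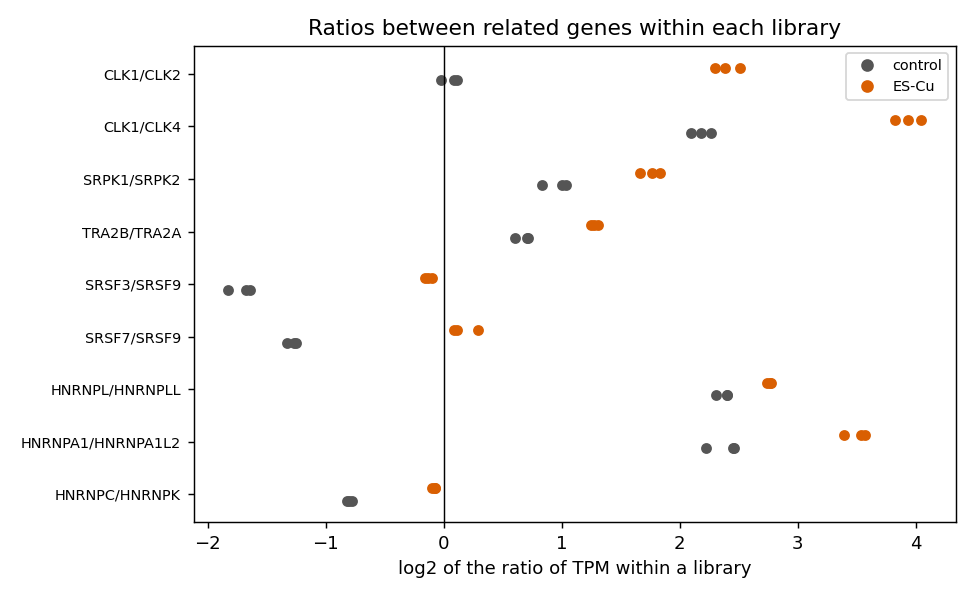
Log2 of the TPM ratio within each library for 9 pairs of members, with control libraries in grey and ES-Cu libraries in orange. The groups are apart in every pair; CLK1/CLK2 moves from 0.986 to 1.08 in control to 4.92 to 5.70 in ES-Cu, and SRSF3/SRSF9 from at most 0.321 to at least 0.898.

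Gene-level TPM adds productive and unproductive transcripts together. In GENCODE release 29, all 13 tested SR genes (100%) have at least 1 transcript annotated as a target of nonsense-mediated decay, as do 13 of 21 HNRNP genes (61.9%), against 43.2% of the 11857 tested genes that could be matched. CLK1 has 2 such transcripts and 8 annotated as retaining an intron, and SRSF7 has 6 and 2. TRA2B has 1 and 8, and SRSF3 has 2 and 4. Of the 12 members that rose, 8 have an annotated decay transcript, as have 2 of the 5 that fell and 21 of the 23 with neither. The median number of annotated transcripts was 9.5, 7 and 13 in these 3 groups. It was 11 for the SR genes and 11 for the HNRNP genes, against 8 for all matched genes. The part of transcript number in these shares was not tested. Annotated forms are a property of the gene and not a measurement here, and which forms made up the TPM was not analysed.

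Other parts of the splicing machinery were listed by their known roles, and each list held genes called higher and lower in at least 1 scaling. Of 22 genes that recognise splice sites, 6 rose and 1 fell (13.5% and 31.2% of all tested genes; list median log2 fold change -0.13, all genes -0.50). SF1, which binds the branch point, rose from 228 ± 1.46 to 346 ± 13.0 TPM, and the SF3B complex subunit genes SF3B4 and SF3B5 had log2 fold changes of 0.39 and -0.71. U2AF1, which reads the 3′ splice site, was listed at 0.27, 0.18 and 0.18 TPM in control and at 13.5, 0 and 9.87 TPM in ES-Cu. It was called higher in all 3 scalings although its groups overlap, and it is counted among the 6 that rose. With a control mean of only 0.21 TPM, it reached the average of 1 TPM needed for testing through its ES-Cu libraries alone (mean 7.79 TPM). In a check added after seeing its values, the call was lost without ES-Cu replicate 1 (limma adjusted p = 0.0850) or 3 (0.0704). U2AF1 has a near-identical copy in the reference genome, which makes its TPM uncertain.

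Of 26 genes of the tri-snRNP and catalytic core, 8 rose and 1 fell (median -0.19), against 13.5% and 31.2% of all tested genes. The largest rise was in SLU7, a second-step factor, from 34.1 ± 0.917 to 64.1 ± 3.03 TPM, followed by CWC22 (log2 fold change 0.59), which loads the exon junction complex, and PLRG1 (0.54). The helicase gene DHX16 fell from 65.2 ± 0.649 to 34.3 ± 2.24 TPM. The Sm and LSm ring genes, whose proteins form the core of the small nuclear ribonucleoproteins, numbered 14, of which 0 rose, 3 fell and all 14 were called lower as deposited (13.5%, 31.2% and 70.0% of all tested genes; list median -0.40, all genes -0.50). LSM2 went from 103 ± 9.36 to 40.5 ± 3.53 TPM, and LSM4 and LSM6 had log2 fold changes of -1.05 and -1.04. After median-of-ratios scaling 6 of the 14 were called higher and 3 lower, and under quantile normalization 1 higher and 9 lower.

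Of 44 other regulators of alternative splicing, 9 rose and 6 fell (median -0.20), against 13.5% and 31.2% of all tested genes. SON, a scaffold of nuclear speckles, rose from 104 ± 3.42 to 145 ± 3.21 TPM, and EWSR1 and the paraspeckle protein gene SFPQ both had a log2 fold change of 0.46. CELF2 (-1.61) and the cold-inducible CIRBP (-1.10) fell, as did PTBP2, the neuronal relative of PTBP1, from 14.9 ± 0.952 to 6.95 ± 0.501 TPM. CIRBP went from 121 ± 7.27 to 56.2 ± 6.36 TPM. Among 15 genes of the exon junction complex and nonsense-mediated decay, 3 rose and 0 fell (median -0.12), against 13.5% and 31.2% of all tested genes. The 3 that rose were MAGOH, from 197 ± 5.54 to 332 ± 23.9 TPM, the decay kinase gene SMG1 (0.60), which has pseudogene copies, and EIF4A3 (0.35), the helicase that clamps the junction complex on mRNA.

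Among 14 tested genes for other kinases, phosphatases and importers that act on SR proteins, 3 rose and 2 fell (median -0.36), against 13.5% and 31.2% of all tested genes. TNPO1, whose protein carries HNRNPA1 rather than SR proteins into the nucleus, rose from 47.4 ± 2.66 to 84.2 ± 5.01 TPM, and DYRK1A, a kinase of SR proteins related to the CLK family, from 15.9 ± 1.37 to 27.4 ± 1.32 TPM. PPP1R10, a regulatory subunit of protein phosphatase 1, had a log2 fold change of 0.46. DYRK4 (-1.39) and PPP1R8 (-0.71), which encodes a phosphatase 1 subunit of the spliceosome, fell.

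Promoters of the members were searched for motifs of factors that respond to heat, metals and oxidants. RefSeq promoters on GRCh38.p14, from 250 bases before to 50 after the first listed start, were found for 39 of the 42 members. A heat shock element of 3 units, the site of the heat shock factor HSF1 (GAA and TTC alternating, each followed by any pair of bases, either strand), was in 1 of 39 (2.56%), against 0.487% of 27305 promoters of the same length. Its shorter form of 2 units (TTCNNGAA or GAANNTTC, which overlaps the longer one) was in 3 of 39 (7.69%), against 13.7%. The core of the antioxidant response element (TGACNNNGC, either strand) was in 8 of 39 (20.5%), against 13.6%. The metal response core (TGCGCNC or TGCACNC, either strand) was in 15 of 39 (38.5%), against 29.3%, and the cAMP response element TGACGTCA in 0 of 39, against 1.98%. The 27305 promoters include those of genes not tested here. They were not matched to the members in abundance or base content, and the part of either in these shares was not tested.

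The matches of the heat shock and antioxidant motifs in members that rose are printed here with the HNRNPA2B1 match, the only 3-unit heat shock element found. Each is 30 bases of the gene's own strand, 5′ to 3′, from RefSeq on GRCh38.p14, with the match in capitals.
CLK1, antioxidant core, chr2:200864692-200864721, minus strand: agacgcgctcGCTGCGTCAtcagtgttttc
TRA2B, antioxidant core, chr3:185938018-185938047, minus strand: gctaaggagcGCCGCGTCAcatccggtaga
TRA2B, antioxidant core, chr3:185938137-185938166, minus strand: cctgcgagggGCGGGGTCAcgtcacttcct
HNRNPAB, antioxidant core, chr5:178204515-178204544, plus strand: ccacgagtcgGCATTGTCAggcggcggcac
HNRNPC, heat shock element of 2 units, chr14:21269471-21269500, minus strand: acagccaatagGAAGATTCtcaggaatggg
HNRNPA2B1, heat shock element of 3 units, chr7:26200763-26200792, minus strand: gtggggggGAAGGTTCTAGAAaagcggcgg

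These matches begin 53 bases before the start of CLK1, 23 and 142 before that of TRA2B, 8 before HNRNPAB, 47 before HNRNPC and 38 before HNRNPA2B1. Of the 11 members that rose and had a promoter, 3 held the antioxidant core, 1 the 2-unit heat shock element and 4 the metal response core; of the 5 that fell, 0, 0 and 2 did. No match was recorded for SRSF3 or SRSF7, which rose nearly as much as TRA2B. Not every member that rose had a promoter to search. Whether SRSF3 and SRSF7 had one is not given here, so the lack of a match may be a lack of sequence. A match is a run of letters and not a bound site, and its absence from this window says nothing of the factor.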

How the data were processed

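TPM values of 6 libraries, made by the authors and rounded to 2 decimals, were deposited as 1 table. The labels' protocols give single-end reads of 50 bases on a BGISEQ500. HISAT and Bowtie2 are named, without versions, in the submitters' processing notes. Those notes also name GRCm38.p6, a mouse build, while the table lists human genes. The quantification tool and annotation are not given in the sources used here. No coordinates come from the table.

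Log2(TPM + 1) of genes averaging 1 TPM or more was fitted by limma 3.58.1 (R 4.3.3) (empirical Bayes with trend, two-sided, Benjamini-Hochberg over all tested genes, threshold 0.05). Columns were assigned to groups by their titles, and 0 sample columns were left unused. No replicate block was used. Scaling by the median of ratios and quantile normalization were run beside it. Members and gene lists were chosen with earlier results of these data known.

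Full values are given for the 6 kinases and TRA2A and TRA2B. They are also given for up to 8 SRSF and HNRNP genes per family and direction with the largest change, a single sign in all 3 scalings and at least 5 TPM in a group, and for the 3 highest of each family. From each other list up to 3 genes per direction were named by the same criteria. Members described besides these, TNPO3 and the pairs in ratios were chosen after their values were seen. The alternatives tried were no trend, other pseudocounts (0.1 and 0.5), another filter (none or 5 TPM), a replicate block, leaving out each library, and, added after seeing the data, removal of each library's GC trend (GENCODE release 29; 99.4% of tested genes matched), ratios under quantile normalization, the kinase sum without CLK1 and U2AF1 without each library.

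On simulated libraries for this comparison (11927 genes), recovery was 50 of 50 at a log2 change of -1, 49 of 50 at 1, 34 of 50 at -0.5 and 39 of 50 at 0.5, with 9 of 11727 unchanged genes called. The simulation used independent noise, changed few genes, all above about 5 TPM in control, and held no shift of scale between groups. It therefore cannot show how reliable the calls are under the shift seen in the data.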

Additional observations from a re-analysis of the deposited data

How the results depend on the processing

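The counts of members called, 13 higher and 15 lower, depended on the scaling. Median-of-ratios scaling gave 30 and 5, quantile normalization 22 and 12, and removal of each library's GC trend, chosen after seeing the data, 29 and 7. With the GC trend removed, 4349 of 11857 genes were called higher and 4138 lower, and the median log2 fold change was -0.00. That setting therefore also shifted the median gene. Members have a median transcript GC of 42.4%, against 48.8% for all tested genes, and the part of GC in these counts was not tested. The log2 ratio of the HNRNP sum turned from -0.10 to 0.46 after median-of-ratios scaling. Leaving out each library gave 11 to 15 higher and 13 to 16 lower members, HNRNP sums of -0.12 to -0.08, SR sums of 0.20 to 0.25 and kinase sums of 0.27 to 0.33. With the replicate block 13 members were higher and 15 lower, and no member's call changed. Same-numbered libraries deviated together at r of -0.03 to 0.02, and libraries with different numbers at -0.06 to 0.04. Whether same-numbered libraries were handled as pairs is not stated, and these values cannot decide it.

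Log2 fold changes that turned sign and were called under at least 1 of the settings compared were, after median-of-ratios scaling, CLK4 0.30, HNRNPA1 0.53, HNRNPD 0.26, HNRNPDL 0.50, HNRNPF 0.30, HNRNPK 0.07, HNRNPM 0.54, HNRNPR 0.28, HNRNPU 0.52, HNRNPUL1 0.09, SRSF1 0.48, SRSF2 0.50, SRSF5 0.44 and SRSF9 0.01. Under quantile normalization they were CLK4 0.34, HNRNPDL 0.21, SRSF1 0.14, SRSF2 0.11 and SRSF5 0.01; HNRNPM (0.06) and HNRNPU (0.09) also turned sign there, with no call on either scale. With the GC trend removed they were CLK4 0.13, HNRNPA1 0.36, HNRNPD 0.09, HNRNPDL 0.35, HNRNPF 0.19, HNRNPL 0.01, HNRNPM 0.56, HNRNPR 0.05, HNRNPU 0.35, HNRNPUL1 0.14, SRSF1 0.30, SRSF2 0.36 and SRSF5 0.34. Median-of-ratios scaling raised the 40 members by 0.49 to 0.56, whereas quantile normalization moved them by -0.03 to 0.60 and lowered 3. Pseudocounts of 0.1 and 0.5 and a filter of 5 TPM changed no member's call. Without a filter 1 call was lost (SRSF5) and without the trend 3 were (HNRNPA2B1, SRSF4 and SRSF5).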
